A study of Mus musculus with 4 samples.

Results

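The genes described here are 44 genes of ribosome biogenesis, chosen as a list of symbols and measured on mouse expression arrays. Each gene was read from the probe set with its highest mean log2 signal, where a probe set is the group of short probes that an array carries for a transcript. The 44 genes are part of 18194 genes that had a probe set annotated with 1 gene symbol. All 44 were among the 9468 measured genes, those whose signal exceeded 100 on 1 or more of the arrays. The cells came from a mouse embryonic stem (ES) cell line derived from CCE cells, in which 1 of the Runx1 alleles carries the fluorescent reporter Venus under the proximal Runx1 promoter. The line is therefore heterozygous for the reporter allele in every population, and a single line was used. ES cells were differentiated for 6 days on OP9 stromal cells without further treatment and sorted by flow cytometry. Population 1 was Runx1-/VE-cadherin+/Flk1+, population 2 was Runx1+/VE-cadherin+/CD41-, population 3 was Runx1+/VE-cadherin+/CD41+ and population 4 was Runx1+/VE-cadherin-/CD41+, where Runx1 stands for the Venus reporter, VE-cadherin and Flk1 are surface proteins of endothelial cells and CD41 is an integrin of early blood cells. The populations are ordered from endothelial cells, through VE-cadherin+ cells with the Runx1 reporter, first without and then with CD41, to early blood progenitors. All were sorted on day 6, and descent of one population from another was not measured on these arrays. A step below is a comparison of neighbouring populations in this order.

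Ribosomes are built in the nucleolus, where RNA polymerase I transcribes a long precursor of the ribosomal RNAs. Small nucleolar ribonucleoproteins (snoRNPs) modify and help to cleave this precursor, and a large set of assembly factors folds it with ribosomal proteins into the small and the large subunit before both leave the nucleus. Genes of these factors are highly expressed in growing cells, many are known targets of the transcription factor Myc, and inherited defects of several of them cause failure of blood formation.

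Each population was measured on 1 array, so these arrays give no spread between cultures or sorts and no test between populations was made. A further sample set that the study measured on Agilent arrays was not analysed here. The values are signals (intensity on a linear scale) that were not compared between genes, since probe sets differ in how well they bind. A log2 ratio sets the signal of 1 population over that of another, with signals under 100 raised to 100, which makes such a ratio a minimum. A gene is counted as higher or lower when it differed by at least 1.5-fold, and counts are given beside the share of all 9468 genes that passed the same limit. In bulk samples, fewer cells of a type and less RNA per cell cannot be told apart. Between 8097 and 8666 genes had a signal above 100 on each array. Log2 signals correlated most closely between populations 2 and 3 (r = 0.964 across genes) and least between populations 1 and 4 (r = 0.618).

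The E-box, the letters CACGTG that dimers of Myc and Max and other helix-loop-helix factors can bind, was searched in the RefSeq promoters (build GRCm38.p6) of the genes, from 250 bases before to 50 bases after each start. Of the 44 genes, 39 had a promoter entry. It was present in 9 of the 39 (23.1%), against 12.2% of the promoters of 7765 measured genes and 8.09% of all 27025 genes with a promoter entry. The motif reads the same on both strands. The 9 matches are shown with flanking bases, 5′ to 3′ on the strand of the gene and with the motif in capitals, because the ratios of these genes are set against those of the other 30 further on.
Imp4 (chr1:34439699-34439722, + strand): gtcttagacCACGTGacatcccaa
Ltv1 (chr10:13193095-13193118, - strand): ctgtggaccCACGTGtggagctgc
Mybbp1a (chr11:72441358-72441376, + strand): ttctgagccCACGTGtttg
Nop2 (chr6:125131814-125131837, + strand): tccctggatCACGTGtgttccggt
Pes1 (chr11:3963968-3963991, + strand): taggcagggCACGTGcgggaggaa
Tsr1 (chr11:74898095-74898118, + strand): cttggtgcaCACGTGgactgcaga
Utp18 (chr11:93885772-93885795, - strand): agcgccggtCACGTGgcttgcggc
Utp20 (chr10:88826765-88826786, - strand): cactaactaCACGTGaggaaaa
Wdr43 (chr17:71616223-71616246, + strand): ccgggcgaaCACGTGgctgccgcg

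Ribosome biogenesis genes were higher in population 4 than 1 almost throughout the list. The median log2 ratio of the 44 genes was 1.18, a 2.27-fold difference, against 0.36 (1.29-fold) over all genes. In population 4, 42 of the 44 were at least 1.5-fold higher than in population 1, against 39.6% of all genes, and 30 were at least 2-fold higher, against 22.4%. None was at least 1.5-fold lower, against 18.3% of all genes. The middle of the list was narrow, with quartiles of 0.92 and 1.57, and the extremes among the 41 genes above 100 in population 1 were Npm1 at -0.16 and Wdr12 at 2.17. The other 3, Rrp9, Polr1b and Noc3l, have only minimum ratios and no rank. The median over all genes lay between 0.10 and 0.65 when the arrays were rescaled in 4 other ways, and the 44 genes stayed 0.77 to 0.86 above it.

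On the deposited scale the difference lay at 2 steps, the first and the last, with little difference at the middle step. At the first step, from Runx1-negative endothelial cells to Runx1-positive cells without CD41, the median ratio of population 2 over 1 was 0.67 (1.59-fold), against 0.00 over all genes. At this step 30 genes were at least 1.5-fold higher, against 11.0% of all genes, and 0 were lower, against 10.2%. All 44 ratios were above 0, and those of the 41 genes above 100 in population 1 lay between 0.08 for Npm1 and 1.25 for Wdr12. At the middle step, the gain of CD41, the median ratio of population 3 over 2 was -0.06, against 0.22 over all genes. Here 0 genes were at least 1.5-fold higher, against 14.7% of all genes, and 1 was lower, against 1.08%, so that 43 of the 44 were within 1.5-fold. The sign and size of this ratio followed the scaling. It was 0.31 after scaling on the hybridisation controls, -0.37 after centring, -0.33 after quantile normalisation and -0.47 with the poly-A controls. With the poly-A controls 16 of the 44 genes were at least 1.5-fold lower, against 633 of 9438 genes. The 44 genes lay 0.26 to 0.37 below the median of all genes under all 4 rescalings.

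At the last step, the loss of VE-cadherin, the median ratio of population 4 over 3 was 0.63 (1.55-fold), against 0.06 over all genes. It held 25 genes that were at least 1.5-fold higher, against 20.1% of all genes, and 0 that were lower, against 19.2%. Of the 41 genes above 100 in population 1, the first step was the larger for 27 and the last for 14. In all, 42 of the 44 (95.5%) had their highest signal in population 4, against 51.8% of all genes, the exceptions being Npm1 and Utp14a. The lowest signal was in population 1 for 43 genes (97.7%), against 40.4% of all genes. A profile that was higher in 2 than 1, lower in 3 than 2 and higher in 4 than 3 was found for 28 genes (63.6%), against 8.98% of all genes, and a further 14 (31.8%) were higher at every step, against 24.5% of all genes. Both counts depend on the sign of the small middle step and are not stable. Over the rescalings the first ranged between 1 and 42 genes, against 93 to 3477 of all genes. The second ranged between 1 and 41, against 792 to 2832 of all genes.

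**Figure D1:**
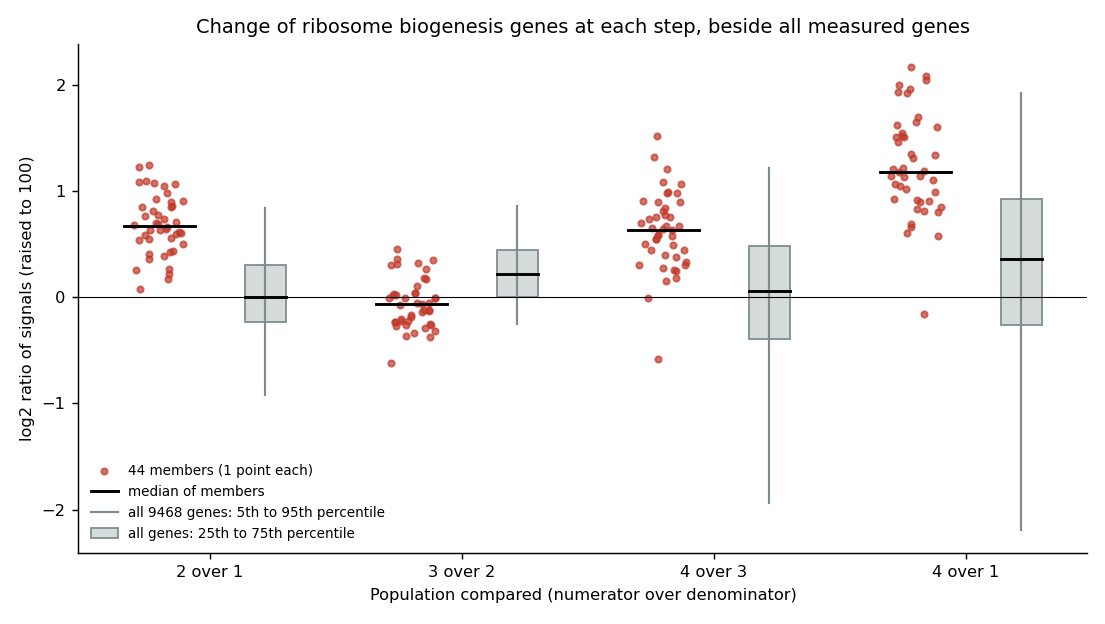
Log2 ratios of the 44 ribosome biogenesis genes (red points, with their median as a black line) at each step and between populations 4 and 1, each left of the spread over all measured genes (box, 25th to 75th percentile; line, 5th to 95th percentile; black bar, median). The medians of the 44 genes are 0.67, -0.06, 0.63 and 1.18, against 0.00, 0.22, 0.06 and 0.36 over all genes.

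The box C/D snoRNPs place methyl groups on ribosomal RNA and, with U3, begin its cleavage. Fibrillarin (Fbl), their methyltransferase, had signals of 2443, 5209.8, 4483 and 5372 in populations 1 to 4. Its main difference lay at the first step, and populations 2 and 4 were almost level. Nop56, a scaffold protein of the same particle, had 1278, 2743, 2245 and 3643. Nop58, its partner in the scaffold, had 1739, 3656, 3061 and 4298. On these probe sets and the deposited scale, all 3 core proteins had population 1 lowest, 3 below 2, and 4 highest. Another probe set put population 3 above 2 for Fbl (4229 against 3897) and for Nop56 (2502 against 2440.5). The order of populations 2 and 3 is therefore not settled. Rrp9, a protein specific to the U3 particle, had 64.6, 207, 135 and 389, which made it at least 3.89-fold higher in population 4 than 1. It was the 1 gene of the 44 past the 1.5-fold limit downwards in population 3 against population 2 (log2 ratio -0.62), and it had the highest ratio of population 4 over 3 (1.52). The 4 genes of this group had a median ratio of 1.08 for population 2 over 1, and all 4 were at least 1.5-fold higher there, against 11.0% of all genes.

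The box H/ACA snoRNPs convert uridines of ribosomal RNA to pseudouridine, and the same core proteins belong to telomerase. Dyskerin (Dkc1), the pseudouridine synthase, had signals of 1183, 2766, 2545 and 5039 in populations 1 to 4. It was 4.26-fold higher in population 4 than 1, the second highest ratio among the 41 genes above 100 in population 1 (log2 2.09), and its other probe sets gave 2.07 and 2.12. Nhp2, a core protein that binds the guide RNA, had 2835, 4615, 3857 and 5951. Gar1, which binds the synthase, had 919.9, 1574, 1395 and 2080.0. Nop10, the small protein that joins Nhp2 to the synthase, had 2344, 4215, 4302 and 7373. In all 4 genes population 1 was lowest and population 4 highest, by 2.10-fold to 4.26-fold, and for Nop10 populations 2 and 3 were nearly level.

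Of the abundant nucleolar proteins, nucleolin and nucleophosmin showed the smaller differences on the probe sets with the highest signal. Nucleolin (Ncl), which binds the ribosomal RNA precursor, had signals of 5197, 7682, 7385 and 8200.1 in populations 1 to 4, a 1.58-fold difference between populations 4 and 1. Its other 3 probe sets gave larger log2 ratios, of 1.06 to 1.39, against 0.66. Nucleophosmin (Npm1), a histone chaperone and shuttle protein of the nucleolus, had 15008, 15840.1, 13608 and 13476. Its ratio of population 4 over 1 was -0.16, but 0.25 with its other probe set, 0.18 after scaling on the hybridisation controls and 0.05 with the mean over both probe sets. No direction can therefore be given for Npm1. Across all genes with a signal above 10000 in population 1, the median ratio was -0.05 over 74 genes, which include Npm1 and 34 ribosomal protein genes. The other 3 genes of the group, the snoRNP chaperone Nolc1, the nucleolar GTPase nucleostemin (Gnl3) and the helicase Ddx21, were 3.80-fold, 2.07-fold and 3.05-fold higher in population 4 than 1.

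RNA polymerase I subunits differed at both ends of the sequence. Polr1a, the largest subunit and part of the catalytic centre, had signals of 238, 398, 309.9 and 554 in populations 1 to 4. Polr1b, the other subunit of the catalytic centre, had 69.3, 180.1, 195 and 383, at least a 3.83-fold difference between populations 4 and 1. Polr1e, a subunit that helps the enzyme to engage its initiation factors, had 128, 181, 150.1 and 279. Each of the 3 was lowest in population 1 and highest in population 4. Mybbp1a, a nucleolar protein known to bind Myb and the polymerase, had 2134, 3125, 2658 and 3263. It was among the smallest differences of the 44 (log2 ratio 0.61 for population 4 over 1), and its other probe set gave 1.01.

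**Figure D2:**
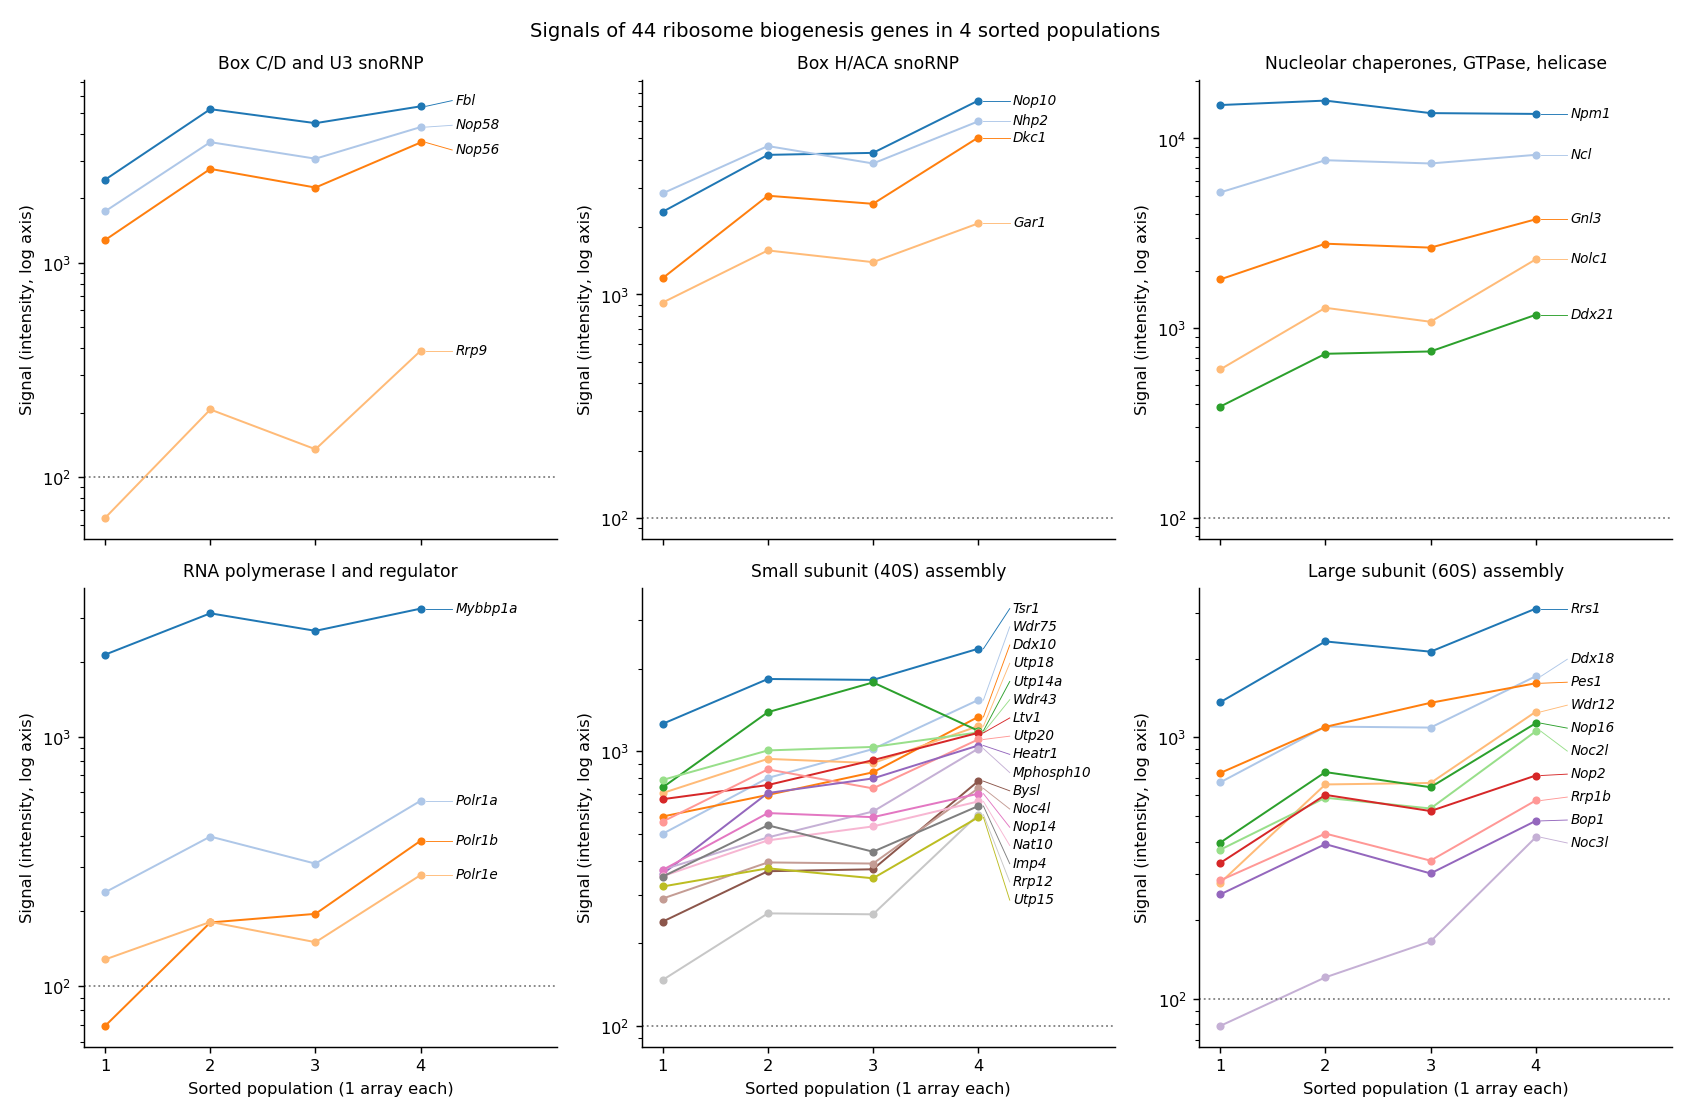
Signals of the 44 genes (log axis, intensity) in populations 1 to 4, 1 array each, in 6 panels by role, with the limit of 100 dotted. Most lines are lowest in population 1, level off or dip in population 3 and are highest in population 4, with Npm1 (13476 in population 4, 15008 in population 1) and Utp14a (1189 in population 4, 1783 in population 3) apart.

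The 17 genes of the small subunit processome and of small subunit maturation had a median ratio of 0.92 for population 4 over 1, and 16 of them were at least 1.5-fold higher, against 39.6% of all genes. Rrp12, a factor in the export of pre-ribosomes, had 147, 257, 255 and 588 in populations 1 to 4. Its 4.00-fold difference was the largest of this group and came from the first and the last step. Wdr43, whose yeast counterpart is needed for transcription of the precursor as well as its processing, had 787, 1008, 1038 and 1172, a 1.49-fold difference. Its other probe set gave a log2 ratio of 1.24, against 0.58. Utp14a, a processome component, had 739, 1389, 1783 and 1189. It was the 1 gene of the list with its peak in population 3, and no other probe set of it had a signal above 100. Ltv1, which accompanies the small subunit precursor to the cytoplasm, had 669.6, 754, 929 and 1168, with little difference at the first step (log2 ratio 0.17). The remaining 13 were 1.75-fold to 3.25-fold higher in population 4 than 1, with Utp18 at the low end and Bysl, a late maturation factor, at the high end.

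The 10 genes of large subunit assembly were all at least 1.5-fold higher in population 4 than 1, against 39.6% of all genes, and their median ratio was 1.27 (log2). Wdr12, Pes1 and Bop1 encode the PeBoW complex, which is needed to process the precursor of the large subunit RNAs. Wdr12 had signals of 278, 661, 669.6 and 1253 in populations 1 to 4. Among the 41 genes above 100 in population 1 it had the highest ratio both for population 4 over 1 (4.51-fold) and for population 2 over 1 (2.38-fold), and its other probe set had the same order of populations 1 and 4, with 60.6, 128, 186 and 401. Pes1 had 731, 1097, 1356 and 1611, and Bop1 had 251, 391, 302 and 479.6. At the middle step the log2 ratios of population 3 over 2 were -0.37 for Bop1, 0.31 for Pes1 and 0.02 for Wdr12 on the deposited scale, but other probe sets of Pes1 (71.7 in population 3, 101 in population 2) and Wdr12 (186 in population 3, 128 in population 2) differed from these. Noc3l, a factor of the early large subunit precursor, had 78.9, 121, 166 and 415, at least a 4.15-fold difference between populations 4 and 1. Its ratio of population 3 over 2 was 0.46, the highest of the 44 on the deposited scale, and its other probe set, with signals of 83.7, 96.3, 78.1 and 174, gave 0.80 for population 4 over 1, against 2.05. The remaining 6, the methyltransferase Nop2, Nop16, Rrs1, the helicase Ddx18, Noc2l and Rrp1b, were 2.02-fold to 2.86-fold higher in population 4 than 1.

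The role groups shared the profile. Their median ratio of population 2 over 1 ran from 0.54 for the small subunit genes to 1.08 for the box C/D and U3 genes, and that of population 4 over 3 from 0.50 for the nucleolar proteins to 0.87 for the polymerase I genes. Every group median for population 3 over 2 was between -0.27 and 0.02 on the deposited scale. Across the 44 genes, the ratio of population 4 over 1 was weakly related to the mean log2 signal (Spearman's rho -0.28, Pearson's r -0.42, across genes of the same arrays, which are not independent). The 14 genes with a signal between 250 and 500 in population 1 had a median ratio of 1.22, against 0.42 over all genes in that range, and the 9 between 1000 and 2500 had 1.19, against 0.15.

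Other probe sets gave a measure of technical error on these arrays. The 44 genes had 93 probe sets, and 29 genes had at least 1 other probe set above 100, which gave 37 pairs. For population 4 over 1, 35 of the 37 other probe sets had the direction of the main one, and their median was 1.24. The exceptions were Npm1 and Pes1. The other probe set of Pes1 gave 65.1, 101, 71.7 and 90.8. Populations 1 and 4 were both raised to 100 there, so its ratio of 0.00 gives no direction. Among the 29 pairs in which both probe sets were above 100 in both populations, 28 had the same direction, and the absolute difference within a pair had a median of 0.33, against 0.22 over 4495 such pairs of all genes, and reached 0.92 for Ddx21. At the middle step the probe sets did not settle the direction of single genes. For population 3 over 2, 21 of the 37 other probe sets had the direction of the main one, or 19 of the 30 above 100 in both populations, and the median of the 37 was 0.00. Probe sets of 1 array share the same RNA, so this spread says nothing of the spread between cultures.

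**Figure D3:**
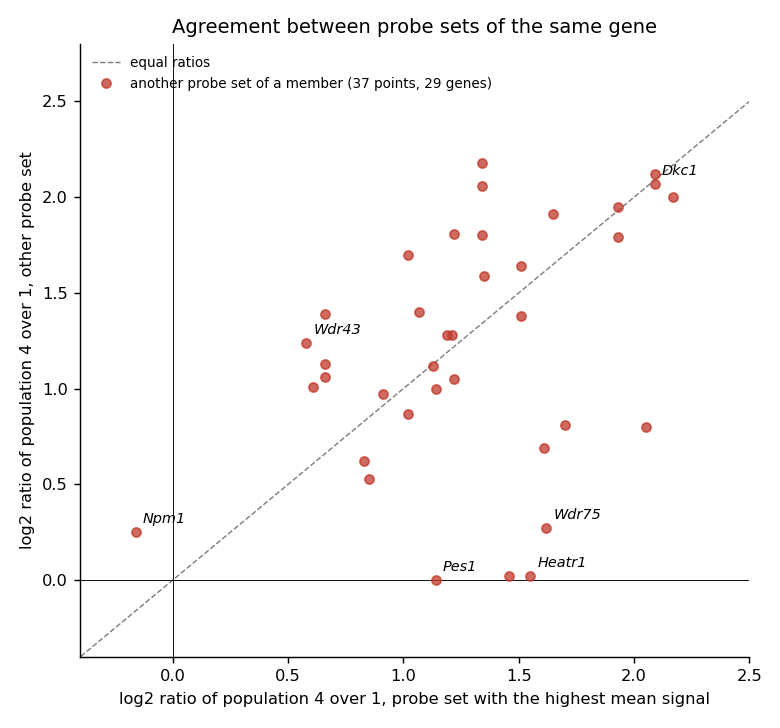
Log2 ratio of population 4 over 1 from another probe set of a gene (vertical axis) against that from its probe set with the highest mean signal (horizontal axis), for 37 probe sets of 29 genes, with equality dashed. Of the other probe sets 36 lie above 0, and Pes1 lies at 0.00.

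Assembly factors outside the 44 had a like profile, while most ribosomal protein genes differed little. Of 124 further factors, 118 were measured, with a median ratio of at least 1.05 for population 4 over 1, since 11 of them were not above 100 in population 1. Of these, 96 were at least 1.5-fold higher and 0 lower, against 39.6% and 18.3% of all genes. At the single steps 42 were at least 1.5-fold higher in population 2 than 1, against 11.0% of all genes, and 53 in population 4 than 3, against 20.1%. Among 36 further small subunit factors 30 were higher, with Rcl1, which acts in cleavage of the precursor, at 328, 552, 524 and 1317 and the processome protein Pwp2 at 117, 206, 187 and 460.3 in populations 1 to 4. The lowest ratios there were those of Utp3 (-0.06) and Nol6 (0.03). Among 44 further large subunit factors 38 were higher, led by Rpf2 (log2 ratio 2.43, but -0.36 and 1.99 with its other probe sets), a factor of the early large subunit precursor, and the methyltransferase Ftsj3 (1.89). The helicase Ddx54 (0.26) and Sbds (0.28), the gene mutated in Shwachman-Diamond syndrome, were lowest.

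Of 23 genes for snoRNP assembly and RNA trimming 20 were higher, against 39.6% of all genes. The exosome subunit Exosc5 (2.47) and the snoRNP assembly factor Znhit3 (2.20) were highest among the genes above 100 in population 1. Nop53 (0.06) and the exonuclease Xrn2 (0.37) were lowest. Further polymerase I factors had a median of at least 0.59, and at least 8 of 15 were higher, since 5 of the 15 were not above 100 in population 1 and have minimum ratios. Among the other 10, the subunit Twistnb (1.61) and the initiation factor Rrn3 (1.44) were highest and the subunit Znrd1 (0.15) was lowest, and Taf1a was at least 0.16. Several subunits in this list are shared with the other RNA polymerases.

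Of 79 listed cytosolic ribosomal protein genes, 43 were measured by a probe set annotated with 1 gene symbol. Their median signal was 13708, 14023, 13901 and 13819 in populations 1 to 4, and their median ratio of population 4 over 1 was 0.02. That ratio was -0.28 after centring the arrays on their medians and 0.35 after scaling on the hybridisation controls, so it has no fixed direction, but it lay below that of the 44 genes under each setting tried. At least 1.5-fold higher were 2 of the 43, against 39.6% of all genes, and 0 were lower, against 18.3%. These 2 were Rpl14, with 843, 1086, 1569 and 2259 in populations 1 to 4, and Rpl12 (log2 ratio 0.95). The lowest were Rpl27a (-0.33) and Rplp0 (-0.15) of the large subunit and Rps4x (-0.18) and Rps29 (-0.13) of the small one, where Rps27 (0.42) and Rps25 (0.30) were highest. In population 1, 34 of the 43 had signals above 10000, and these 34 had ratios between -0.18 and 0.14, while the 8 with signals up to 5000 had a median of 0.35. All 74 genes with signals above 10000 in population 1 had a median of -0.05, but they include these same 34, so this is not a separate reference. A part of signal saturation in the ribosomal protein result was not tested.

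**Figure D4:**
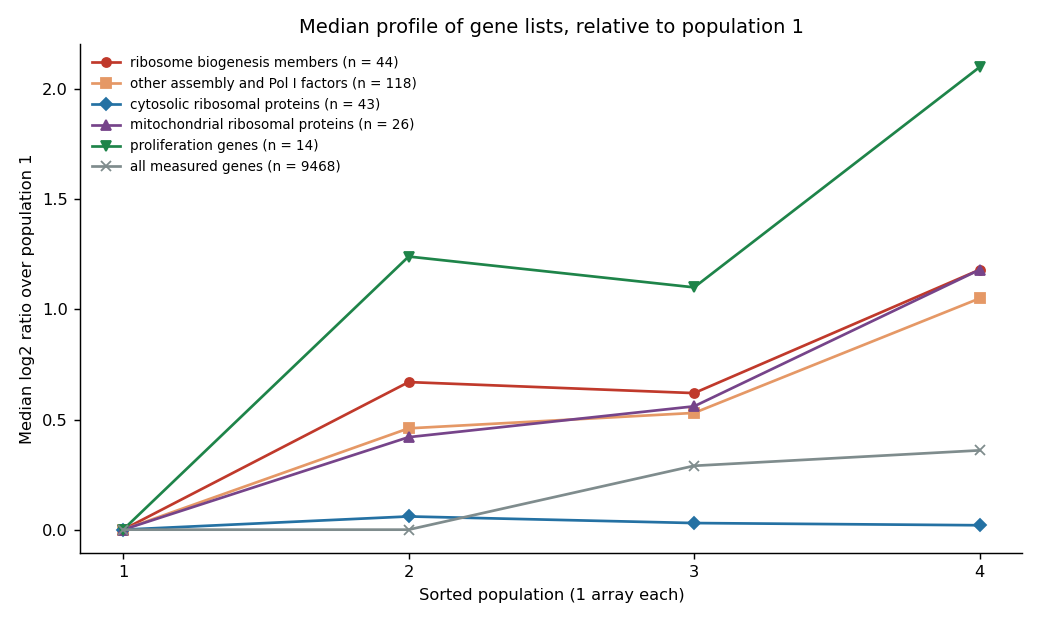
Median log2 ratio of each gene list over population 1 (vertical axis) in the 4 populations (1 array each) on the deposited scale. In population 4 the 44 genes and the mitochondrial ribosomal proteins stand at 1.18, the other factors at 1.05, the proliferation genes at 2.10 and the cytosolic ribosomal proteins at 0.02.

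Mitochondrial ribosomal protein genes had a median ratio of 1.18, and 23 of 26 were at least 1.5-fold higher in population 4 than 1, against 39.6% of all genes. Mrpl18 (2.08) and Mrpl16 (1.78) were highest and Mrpl17 (0.04) and Mrps6 (-0.63) lowest. Proliferation genes differed at the same 2 steps, with larger ratios. All 14 measured were at least 1.5-fold higher in population 4 than 1, against 39.6% of all genes. Their log2 ratios ran from Pcna (1.19) and Mcm3 (1.51), which act in DNA replication, to Mki67 (2.81) and the mitotic kinase Aurka (3.27, but 0.15 with its other probe set). Mki67 had signals of 836, 2239.6, 2208 and 5854 in populations 1 to 4, lowest in population 1 and highest in population 4 as for Dkc1. Its signals in populations 2 and 3 were nearly level. The part of proliferation in the ribosome biogenesis result was not tested.

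Myc network genes differed less than the factors. Myc had signals of 559, 774, 764 and 973 in populations 1 to 4, 1.74-fold higher in population 4 than 1. Mycn had 774, 1716, 1419.9 and 1058, with its highest signal in population 2, where it was 2.22-fold higher than in population 1. The Myc paralogues thus peaked in different populations. Mxd4, a repressor that pairs with Max, had 769, 441, 625 and 309.8, and was the 1 gene of the network past the 1.5-fold limit downwards in population 4 against population 1. Mxd3, another such repressor, had 81.5, 73.3, 115 and 130.1, so that its log2 ratio of 0.38 is a minimum. The other 6 measured genes were within 1.5-fold between these populations, with log2 ratios of -0.39 for Max, -0.36 for Mnt, 0.44 for Mga, 0.48 for Mlx, 0.51 for Mxd1 and 0.54 for Mxi1.

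Genes with an E-box in their promoter had the lower median ratio, on the probe sets with the highest signal. The 9 genes that hold an E-box had a median ratio of 0.85 for population 4 over 1, against 1.41 for the 30 without one. Their ratios ran from 0.58 for Wdr43 to 1.14 for Pes1. Other probe sets gave 1.24 for Wdr43, 1.01 for Mybbp1a and 0.97 for Tsr1, which were higher, and 0.53 for Imp4, which was lower. That of Pes1 was under 100 in populations 1 and 4, so no ratio could be read from it. Imp4, Ltv1, Tsr1, Utp18, Utp20 and Wdr43 belong to the small subunit group, whose median of 0.92 was the lowest of the role groups. The part of the E-box in these ratios was not tested. The core letters of ETS family sites, CCGGAAG on either strand, were in 13 of 39 promoters (33.3%), against 21.8% of those of measured genes, with a median ratio of 1.18, against 1.27 for the 26 without. Another promoter palindrome, CTCGCGAG, was in 1, that of Tsr1 (2.56%, against 2.40%). The E-box and the ETS core cannot overlap in their letters, and 4 promoters held both. A match is a description of the sequence only.

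The sort markers followed the gates in part. Runx1 had signals of 55.3, 358, 1297 and 2440.2 in populations 1 to 4, the VE-cadherin gene Cdh5 had 5683, 3946, 4849 and 40.9, the Flk1 gene Kdr had 5866, 4496, 4835 and 906, and the CD41 gene Itga2b had 667, 1135, 2418 and 1609.5. The summed signals of erythroid and of endothelial marker genes differed most at the last step. Summed signals of 9 erythroid markers were 1227, 2353, 6351 and 56303. Tfrc alone gave 907 and 1961 of these in populations 1 and 2, and Hbb-bh1 gave 3568 in population 3. All 9 were at least 1.5-fold higher in population 4 than 1, against 39.6% of all genes. Summed signals of 10 endothelial markers were 29270.3, 20059.9, 24026 and 3016. All 10 were at least 1.5-fold lower in population 4 than 1, against 18.3% of all genes. Leukocyte markers, 6 of 8 measured, summed to 519, 452, 2128 and 2863, with the larger difference at the middle step. At the first step, 2 of 9 erythroid and 0 of 6 leukocyte markers were at least 1.5-fold higher, against 11.0% of all genes. In population 1, 8 of these 9 and 5 of these 6 were not above 100, so differences at low signal could not be counted. Of the 10 endothelial markers 5 were at least 1.5-fold lower at this step, against 10.2% of all genes. Stromal markers summed to 3356, 2050, 1846 and 1488, with 5 of 10 measured and Col1a1, Pdgfra, Thy1, Dcn and Lum not above 100 in any population. Of the 6 markers of undifferentiated ES cells, Pou5f1 and Nanog among them, 0 had a signal above 100. The part of cell type in the ribosome biogenesis result was not tested.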

How the data were processed

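Total RNA of 4 sorted populations was labelled with a 3′ in vitro transcription kit and hybridised to Affymetrix mouse arrays, 1 array per population. The authors deposited 1 intensity per probe set and array, on a linear scale. The submitters' processing notes name MAS5 and GCOS 1.3, and the scaling between arrays is not given in the sources used here. Of 45101 probe sets, 34958 carry 1 gene symbol and were used, and 932 with several symbols and 9211 without one were left out. Each gene was represented by its brightest probe set (highest mean of log2 signals). Signals under 100 were raised to 100 for ratios, and genes that exceeded 100 on 1 or more arrays were counted as measured. With 1 array per group no test was made, and the number of arrays limits the precision.

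Polr1f, Polr1g and Polr1h were matched through their older symbols Twistnb, Cd3eap and Znrd1. Members and lists were chosen with earlier results of these data known. Signals are printed for all snoRNP, polymerase I and PeBoW genes, Ncl, Npm1 and the 5 highest and 5 lowest ratios of population 4 over 1 (2 each at other steps). From other lists the 2 highest and 2 lowest ratios are named, with Mki67 and Mcm3 chosen after their values were seen, as was the split of ribosomal protein genes by signal. All Myc network genes and sort markers measured are given. Promoters came from RefSeq (GRCm38.p6), by symbol. The alternatives were centring, quantile normalisation, scaling on hybridisation or poly-A controls, omission of probe sets that end in _s_at or _x_at, the mean over probe sets, floors of 50 and 200, no floor, and a signal minimum of 400. Calculations ran in Python 3.11.15 (numpy 2.4.6, pandas 2.3.3, scipy 1.17.1), figures were drawn with matplotlib 3.10.9, and the calculation was tested on simulated data. The study's Agilent arrays and ChIP-Seq reads were not analysed here.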

Additional observations from a re-analysis of the deposited data

How the results depend on the processing

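The median ratio of the 44 genes was 0.62 to 0.82 for population 2 over 1 and 0.50 to 0.81 for population 4 over 3 under all 10 alternatives. For population 4 over 1 it was 1.18, 0.89 after centring on the array median, 0.89 after quantile normalisation and 1.51 after scaling on the hybridisation controls. For population 3 over 2 it was -0.06, -0.37 after centring, -0.33 after quantile normalisation, 0.31 with the hybridisation controls and -0.47 with the poly-A controls. The genes higher at every step numbered 14, and 3, 5, 41 and 1 under the same 4 scalings in that order, and those with the dip in population 3 numbered 28, and 40, 38, 1 and 42. Those at least 1.5-fold lower in population 3 than 2 numbered 1, and 0 to 16 under the alternatives, and those higher numbered 0, and 7 with the hybridisation controls. For population 4 over 1, 35 to 43 were at least 1.5-fold higher. Of all genes 2646 of 9423 were so after centring, and 5035 of 9570 with the hybridisation controls. The other counts over all genes moved with the scaling too. Under the 4 scalings, in the same order, 792, 959, 2832 and 803 were higher at every step. The dip was found for 2430, 2270, 93 and 3477. At least 1.5-fold lower in population 3 than 2 were 399, 385, 29 and 633. The hybridisation controls themselves differed by -0.33 between populations 4 and 1 and by -0.37 between populations 3 and 2 (mean log2), and which scaling is right was not tested. Set beside the median of all genes, the 44 genes were 0.72 to 0.98 higher for population 4 over 1 and 0.17 to 0.37 lower for population 3 over 2 in every setting. For other lists, added after the data were seen, the median ratio of population 4 over 1 was between 0.77 and 1.38 for the other factors, 1.80 and 2.43 for proliferation genes and 0.88 and 1.51 for mitochondrial ribosomal proteins. No paired analysis was possible because each population has 1 array, and no replicate could be left out.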

Other observations

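The arrays carry control probe sets for 18S ribosomal RNA, a product of the pathway. The probe set for its 3′ part had signals of 3072, 3427, 3828 and 5280.1 in populations 1 to 4, that for its middle part had 5652, 6172, 7305 and 9754, and that for its 5′ part had 8780.3, 9539.9, 10342 and 11585. Population 4 was 1.72-fold, 1.73-fold and 1.32-fold higher than population 1, and the log2 ratios of the 5′ part ran from 0.10 to 0.73 over the scalings. Labelling started from poly-A tails, which ribosomal RNA lacks, so these signals are not a measure of its amount.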
